A study of Homo sapiens with 6 samples.

Results

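Tight junctions seal neighbouring epithelial cells to each other, and 9 genes of these junctions were followed across 6 libraries of the breast cancer line HCC38. The genes were the claudins CLDN1, CLDN3, CLDN4 and CLDN7, occludin (OCLN), junctional adhesion molecule A (F11R), the zonula occludens scaffolds TJP1 and TJP3, and cingulin (CGN). They were taken by symbol from a table of read counts with 26485 genes, and all 9 were found in it. HCC38 is an established human line of a breast ductal carcinoma, labelled as triple negative and basal-like. In 3 libraries CIP2A, an inhibitor of the phosphatase PP2A, had been silenced, with 1 library for each of the siRNAs siCIP2A#1, siCIP2A#2 and siCIP2A#3. The 3 controls were cells treated with transfection reagent alone (mock, although elsewhere in the submitters' text it stands for cells that were not transfected) and cells given the non-targeting siRNA SCR#2 or SCR#3. Every library comes from the same line, siRNAs were delivered with Oligofectamine, and the time between transfection and harvest is not given in the sources used here.

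Claudins are membrane proteins whose extracellular loops assemble into the strands of the junction and set which ions and small solutes pass between cells. Occludin and F11R sit in the same membrane contact, while TJP1 (ZO-1), TJP3 (ZO-3) and cingulin lie on its cytoplasmic side and tie the strands to actin. In breast cancer, low CLDN3, CLDN4 and CLDN7 together with low E-cadherin (CDH1) give the claudin-low subtype its name. The transcription factors of the SNAI and ZEB families repress CDH1 and several claudin genes by binding E-boxes.

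Library totals lay between 13995187 and 18161451 counts, and 3 counts, used as a floor, were worth 0.162 to 0.218 CPM (read counts scaled to the library total with TMM factors). CIP2A averaged 100.5 ± 2.18 CPM (SD, n = 3) in the controls and was read at 16.3, 45.8 and 19.3 CPM for siCIP2A#1, #2 and #3, so its RNA was least reduced with siCIP2A#2. Each library had its own agent, so the cells were treated apart, but no label says whether they came from independent experiments. The p-values reflect only how far these libraries spread, which mixes differences between agents with technical variation. Intervals and floors for single counts cover counting error only. Of the markers of the labelled cell type, KRT8 (252 to 438 CPM), KRT18 (395 to 708 CPM), EGFR (72.9 to 84.4 CPM) and FOXC1 were present. The basal keratins KRT5 and KRT17 stayed under 0.1 CPM and KRT14 had 0 counts. The other epithelial markers were nearly absent, with 3 to 11 counts for KRT19, 2 to 18 counts for CDH1 and 0.436 to 0.746 CPM for EPCAM. ESR1 and PGR stayed below 0.36 CPM in every library.

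The 4 claudins differed widely in level. CLDN1, on chromosome 3 from 190305707 to 190322446 (GRCh38, minus strand), is needed for the barrier of the skin. The mock, SCR#2 and SCR#3 libraries gave CLDN1 levels of 51.8, 49.6 and 50.5 CPM. Silencing gave 70.5 CPM (siCIP2A#1), 59.7 CPM (siCIP2A#2) and 45.7 CPM (siCIP2A#3). The 3 controls lay within a narrow band, with 2 siRNA libraries above and 1 below it, so the groups overlapped. CLDN3, on chromosome 7 from 73768997 to 73770270 (minus strand), had 3, 7 and 4 counts in the mock, SCR#2 and SCR#3 libraries and 8, 7 and 5 counts for siCIP2A#1, #2 and #3. CLDN3 and CLDN4 are both receptors of a Clostridium perfringens toxin. CLDN4, from 73830996 to 73832690 on the plus strand, had 14, 17 and 8 counts in the controls in the same order and 36, 18 and 12 with the siRNAs. CLDN3 was thus close to the floor in all 6 libraries. In CLDN4 the siCIP2A#1 library stood above the others at 1.95 CPM, against 0.543 to 1.16 CPM elsewhere.

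CLDN7, on chromosome 17 from 7259903 to 7263213 (minus strand), had 4, 4 and 7 counts in the controls, 9 with siCIP2A#1, 0 with siCIP2A#2 and 3 with siCIP2A#3. The 0 with siCIP2A#2 allows a level of up to 0.194 CPM, beside 0.234 CPM (4 counts) in the lowest control. The siCIP2A#1 library stood at 0.487 CPM (9 counts), beside 0.475 CPM (7 counts) in the highest control. The control values carry counting error too, so these few counts do not set the libraries apart. CLDN7 overlaps ELP5, which lies on the opposite strand and had 729 to 989 counts. The labels name a stranded kit but the strand setting of the counting is unknown here, so reads of the 2 genes may not have been told apart where they overlap. CLDN3 and CLDN7 had too few counts to be tested, and an exact two-sided permutation test of their CPM over the 6 libraries gave p = 0.20 and p = 0.50 (3 against 3 cannot go below 0.10).

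The E-box that SNAI and ZEB proteins bind was looked for in the promoters. The reason was that RNA of ZEB1, ZEB2 and SNAI2 was present beside the low claudins, and whether they act on these genes was not tested. ZEB1 was read at 54.7 to 75.8 CPM, ZEB2 at 49.8 to 71.8 CPM and SNAI2 at 6.71 to 8.91 CPM over the 6 libraries. SNAI1 was lower, at 0.271 to 1.30 CPM (4 to 24 counts). TWIST1, another gene of the mesenchymal list, was read at 6.12 to 7.16 CPM. Promoter windows of 300 bases (250 before to 50 after a transcript start, RefSeq, GRCh38.p14) were found for 8 members, not for F11R. The letters CAGGTG, or CACCTG on the other strand, were present in 6 of the 14 windows, belonging to 5 of these 8 members. Of all 35116 promoter windows 20.6% held the motif, as did at least 1 window of 24.1% of 27305 genes. The members had more windows per gene (14 for 8) than all genes (35116 for 27305), so the shares by gene are not like for like. One stretch per gene follows, 5′ to 3′ on the gene's strand, with the motif in capitals, because the same letters occur in members of very different level.
CLDN3 (chr7:73770221-73770250, minus strand): cccacaaagccacaggCAGGTGcaggcgca
CLDN7 (chr17:7262596-7262625, minus strand): cgacttccggttCAGGTGagtgtcccttcg
OCLN (chr5:69492502-69492531, plus strand): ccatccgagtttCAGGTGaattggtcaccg
TJP1 (chr15:29969120-29969149, minus strand): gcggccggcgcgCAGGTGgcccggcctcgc
TJP3 (chr19:3721718-3721747, plus strand): gaggaagaggggCAGGTGcagccgggagct

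In CLDN3 the motif begins at base 37 of the transcript, and in CLDN7 the motif shown begins 135 bases before a start inside the gene, as 1 of 5 in that window. The window at the 5′ end of CLDN7 held 0. The windows of OCLN overlap and held 1 and 2 motifs. The motif shown begins 33 bases before the transcript start in OCLN, 88 before it in TJP1 and 7 before it in TJP3. The TJP3 start lies inside the gene, and the window at its 5′ end held 0, as did the other 3 windows of TJP1. The windows of CLDN1, CLDN4 and CGN held none. The motif was present in CLDN3 and CLDN7, the lowest members by CPM, and in TJP1, the highest, but not in CLDN4, which is as low as these 2 per length. These are matches of letters, and binding was not measured.

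**Figure D1:**
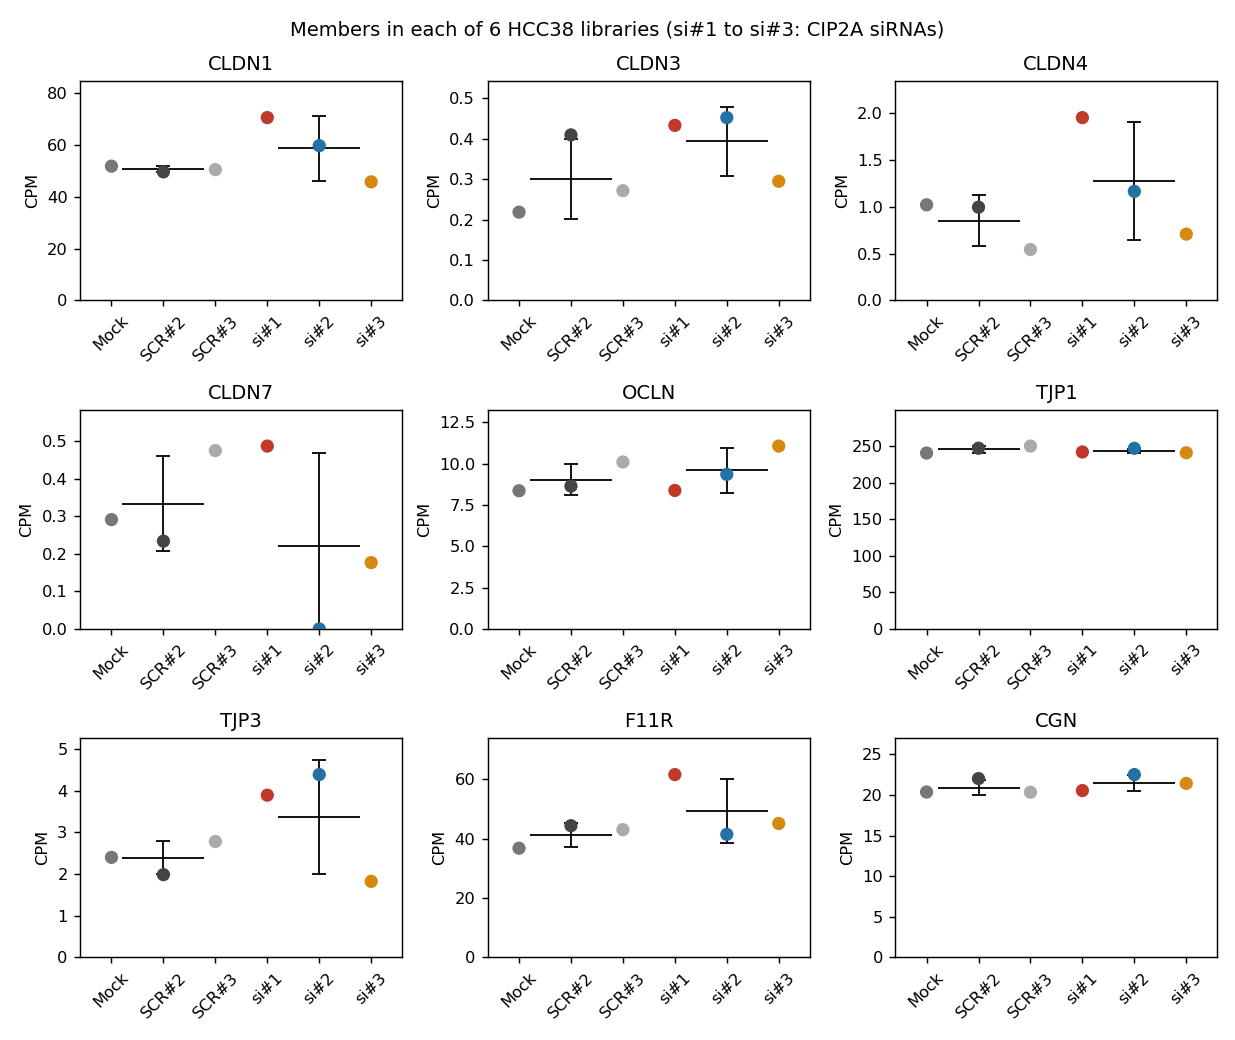
CPM of each member (linear axis from 0, scaled separately per gene) in the mock, SCR#2, SCR#3 and the 3 CIP2A siRNA libraries (points), with the mean and SD of each group of 3 (line and bar). CLDN1, F11R, CLDN4 and TJP3 spread more among the siRNA libraries than among the controls, whereas TJP1 and CGN are level throughout.

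The other membrane proteins were intermediate. OCLN, on chromosome 5 from 69492547 to 69558104 (plus strand), had control levels of 8.37 CPM (mock), 8.65 CPM (SCR#2) and 10.1 CPM (SCR#3). In the silenced libraries the values were 8.38, 9.36 and 11.1 CPM in the order of the siRNA numbers, the last being the highest of the 6, and the groups overlapped. An occludin pseudogene on the same chromosome, listed as LOC647859, had 0 counts in every library, although how reads with several matches were handled is unknown here. F11R, an immunoglobulin-like adhesion molecule on chromosome 1 from 160995211 to 161021152 (minus strand), stood at 36.8, 44.4 and 43.1 CPM in the mock, SCR#2 and SCR#3 libraries. With the siRNAs F11R stood at 61.6 CPM (siCIP2A#1), 41.5 CPM (siCIP2A#2) and 45.2 CPM (siCIP2A#3). The siCIP2A#1 library was set apart from the other 5, which lay between 36.8 and 45.2 CPM.

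Among the scaffolds TJP1 was the steadiest member. TJP1, on chromosome 15 from 29699367 to 29969049 (minus strand), binds claudins through its PDZ domains and stood at 240.3, 247 and 249.8 CPM in the mock, SCR#2 and SCR#3 libraries and at 242, 247 and 241 CPM with siCIP2A#1, #2 and #3. Its highest library was 1.04-fold above its lowest. Cingulin, CGN, on chromosome 1 from 151510170 to 151538692 (plus strand), links ZO proteins to actomyosin and ranged from 20.3 to 22.5 CPM, a 1.11-fold span. TJP3, on chromosome 19 from 3708384 to 3750813 (plus strand), is a scaffold related to TJP1 and gave 2.40, 1.99 and 2.78 CPM in the mock, SCR#2 and SCR#3 libraries. Its level was 3.89 CPM (72 counts) for siCIP2A#1, 4.39 CPM (68 counts) for siCIP2A#2 and 1.83 CPM (31 counts) for siCIP2A#3. Both higher libraries exceeded all controls and the siCIP2A#3 library lay below all of them.

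Divided by the length of the longest transcript, the control levels ran in the order TJP1 (30.9 ± 0.612 CPM per kb, SD, n = 3), CLDN1 (14.5 ± 0.317), F11R (8.57 ± 0.838), CGN (4.11 ± 0.189), OCLN (1.40 ± 0.145) and TJP3 (0.713 ± 0.119). CLDN3 (0.235 ± 0.0773 CPM per kb), CLDN4 (0.205 ± 0.0643) and CLDN7 (0.173 ± 0.0655) came last, and their ranges over the 6 libraries overlapped. The ranges of OCLN and TJP3 also overlapped, and all other neighbours in the order were separate. Of 12839 tested genes with a known length, 82.4% stood below TJP1, 65.1% below CLDN1, 50.7% below F11R, 34.3% below CGN and 18.1% below OCLN. TJP3 stood above 11.3% and CLDN4 above 2.49% of them. With the median transcript length, F11R and CGN moved ahead of CLDN1, and CLDN4 and CLDN7 moved ahead of CLDN3, so these parts of the order depend on the length used.

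Within the whole claudin family the members were not the most abundant. Of 23 claudin genes, 6 had enough counts for testing and 7 had 0 counts in all libraries. CLDN12, an atypical claudin, led in the controls with 36.3 CPM per kb (121 to 143 CPM), ahead of CLDN1. CLDN15, a claudin of cation-permeable strands, followed with 8.34 and CLDN10 with 1.93 CPM per kb. CLDN23 stood at 0.447 CPM per kb, above CLDN3, CLDN4 and CLDN7. The endothelial claudin CLDN5 had a single read, in the SCR#2 library.

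The partners of the members showed the same mixture of present and nearly absent genes. LSR, which marks tricellular contacts, was read at 30.6 to 49.2 CPM, while MARVELD2 (tricellulin) and MARVELD3 stayed under 0.22 CPM. Among the adhesion molecules JAM3 had the highest CPM, at 104 to 115 CPM in the controls. All 15 plaque scaffolds were tested, with YBX3 highest at 292 to 355 CPM. Of the polarity genes 9 of 11 were tested, MPP5 (PALS1) being highest at 129 to 160 CPM, while CRB3 stayed under 0.26 CPM. In the adherens junction and desmosome list CDH1 had 2 to 18 counts, whereas the alpha-catenin gene CTNNA1 reached 530 to 606 CPM. GRHL2, an activator of epithelial junction genes, had 2 counts with siCIP2A#1, 2 with siCIP2A#2 and 0 in each other library. EPCAM stayed between 0.436 and 0.746 CPM.

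**Figure D2:**
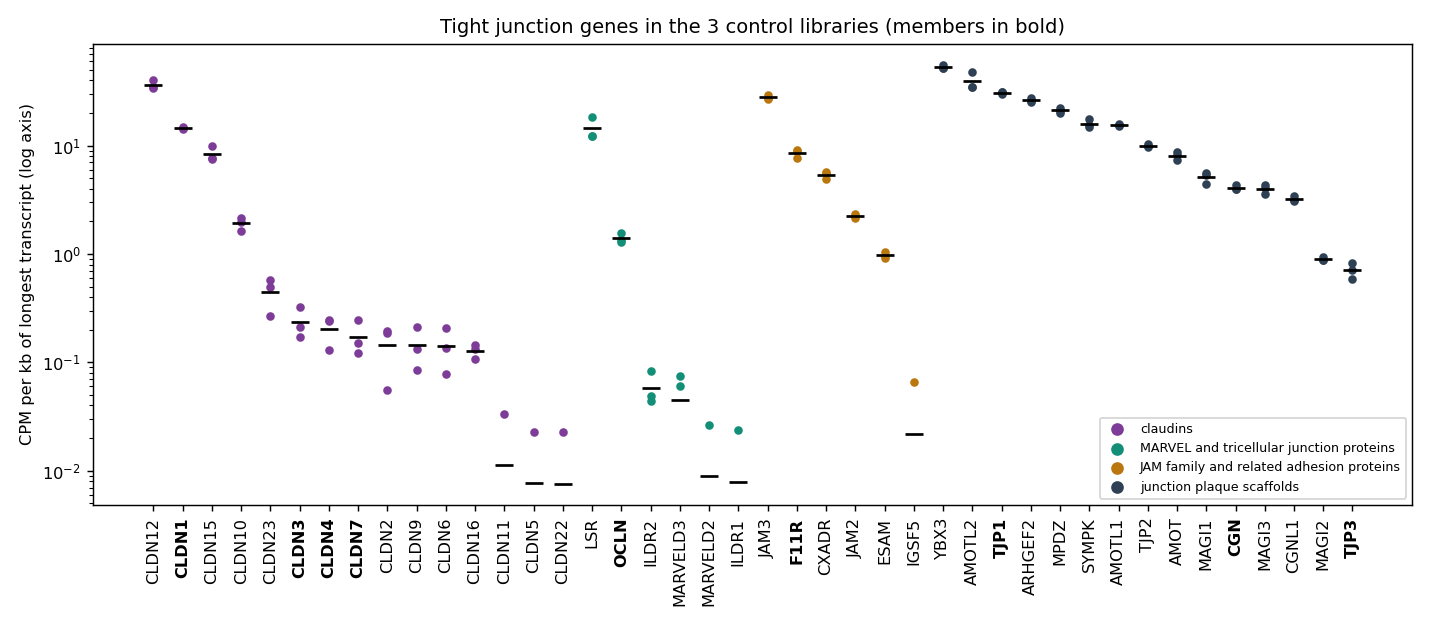
Level of claudin, tricellular, adhesion and plaque genes in the 3 control libraries, as CPM per kb of the longest transcript on a log axis (points: libraries, bar: mean; libraries and genes at 0 are not drawn, members in bold). TJP1 at 30.9 and CLDN1 at 14.5 sit far above CLDN3, CLDN4 and CLDN7, which lie between 0.173 and 0.235.

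The comparison of the 3 CIP2A siRNAs with the 3 controls asked which junction transcripts differ when CIP2A is silenced. None of the 7 tested members passed edgeR's quasi-likelihood test at an adjusted p under 0.05 (Benjamini-Hochberg over 13562 genes), where 0% of all genes passed. The silenced CIP2A was itself among the genes that did not pass, although its groups did not overlap (means of 100.5 and 27.1 CPM). The lack of calls therefore does not show that the members were unchanged. At an unadjusted p under 0.05 there were 0 members, against 2.72% of all genes (1.49% higher with the siRNAs). DESeq2 called 0 members (0.0221% of all genes), as did edgeR with no filter on low counts (0.0157%). Groups overlapped for all 9 members, where they were separate for 7.64% of tested genes (3.25% higher and 4.39% lower with the siRNAs). The log2 difference was 0.21 for CLDN1 (SE 0.14, 95% interval -0.089 to 0.52) and 0.26 for F11R (SE 0.15, -0.064 to 0.58). It was 0.58 for CLDN4 (SE 0.42, -0.32 to 1.49) and 0.50 for TJP3 (SE 0.31, -0.18 to 1.18), with wide intervals at these low counts. OCLN stood at 0.086 (-0.26 to 0.44), CGN at 0.039 (-0.21 to 0.29) and TJP1 at -0.015 (-0.18 to 0.15). The interval of TJP1 was the narrowest of the 7 and that of CLDN4 the widest.

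The median log2 difference of the 7 members was 0.21, with 6 of 7 above 0, beside -0.0011 for all tested genes, of which 49.7% were above 0. Single siRNA libraries set these values. Without siCIP2A#1 CLDN1 stood at 0.058, F11R at 0.064 and CLDN4 at 0.12. Without siCIP2A#2 TJP3 stood at 0.27, and without siCIP2A#3 it stood at 0.79, CLDN4 at 0.88 and CLDN1 at 0.36. OCLN turned from 0.086 to -0.030 without siCIP2A#3.

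Each siRNA was then compared with the controls on its own. Each siRNA has 1 library, assumed to vary like the controls, and the comparisons share their controls. Of the 7 tested members 0 passed with siCIP2A#1 (0.118% of all genes passed), 0 with siCIP2A#2 (0.0737%) and 0 with siCIP2A#3 (0.00737%). DESeq2 also called 0 in each (0.56%, 0.42% and 0.214% of all genes). With siCIP2A#1 it gave no adjusted p for CLDN4 and TJP3, so it did not judge them there. At an unadjusted p under 0.05 CLDN1, CLDN4, TJP3 and F11R were higher with siCIP2A#1, where 9.95% of all genes passed and 5.57% were higher. The same threshold gave TJP3 with siCIP2A#2 (11.6% of all genes, 5.38% higher) and 0 members with siCIP2A#3 (8.22%, 2.99% higher). By level alone, 4 of 7 members lay above all 3 controls with siCIP2A#1 (26.5% of all genes) and 0 below (28.9%). With siCIP2A#2 these were 4 (28.6%) and 0 (30.7%), and with siCIP2A#3 they were 2 (25.7%) and 2 (28.6%).

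With siCIP2A#1 the log2 difference was 0.48 for CLDN1 (SE 0.11, 95% interval 0.23 to 0.73, edgeR adjusted p = 0.183). F11R stood at 0.57 (SE 0.13, 0.27 to 0.88, edgeR adjusted p = 0.187), CLDN4 at 1.18 (SE 0.39, 0.29 to 2.07) and TJP3 at 0.71 (SE 0.26, 0.11 to 1.31). OCLN at -0.11, CGN at -0.026 and TJP1 at -0.023 had intervals that included 0 in the same library. With siCIP2A#2 TJP3 stood at 0.88 (SE 0.27, 0.28 to 1.49, edgeR adjusted p = 0.319), CLDN4 at 0.44 and CLDN1 at 0.24 (SE 0.11, -0.015 to 0.49), while F11R stood at 0.0010 (-0.32 to 0.32). With siCIP2A#3 the signs of CLDN1 (-0.15), CLDN4 (-0.27) and TJP3 (-0.38) were opposite and OCLN stood at 0.29 (SE 0.18, -0.12 to 0.70). The member medians were 0.48 with siCIP2A#1, 0.11 with siCIP2A#2 and -0.030 with siCIP2A#3, beside -0.0063, -0.0030 and -0.0091 for all genes.

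The counts were higher without the mock. There, the spread comes from SCR#2 and SCR#3 alone, with 1 residual degree of freedom, and 13782 genes were tested. In that fit edgeR called CLDN1 (0.49), F11R (0.49) and CLDN4 (1.31) with siCIP2A#1, where 13.8% of all genes passed. In the same setting CLDN1 (0.26) and TJP3 (0.89) passed with siCIP2A#2 (22.4% of all genes), and 0 members with siCIP2A#3 (9.65%). With no filter on low counts F11R also passed with siCIP2A#1 (0.56, edgeR adjusted p = 0.0427), where 0.883% of all genes passed (0.57% and 0.23% with siCIP2A#2 and siCIP2A#3, with 0 members).

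**Figure D3:**
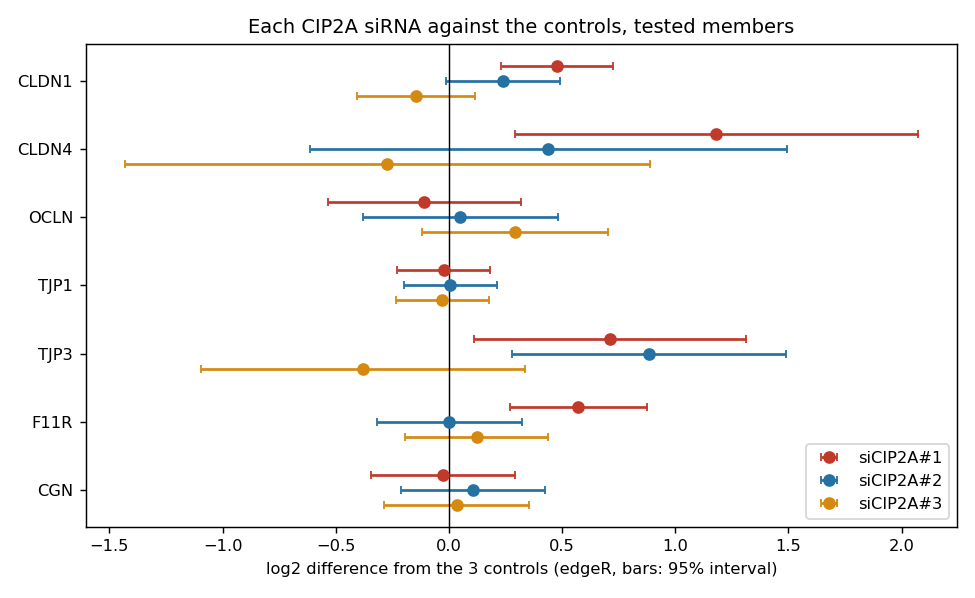
Log2 difference of each siRNA library from the 3 controls for the 7 tested members, with 95% intervals from edgeR's quasi-likelihood fit. CLDN1, CLDN4, TJP3 and F11R lie to the right of 0 with siCIP2A#1 (0.48 to 1.18), TJP3 also with siCIP2A#2, and all 7 intervals include 0 with siCIP2A#3.

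Differences between the siRNAs were tested directly. Of 7 members 0 passed between siCIP2A#1 and siCIP2A#2 (0.0147% of all genes passed), 0 between siCIP2A#1 and siCIP2A#3 (0.509%) and 0 between siCIP2A#2 and siCIP2A#3 (0%), and DESeq2 called 0 in each (0.671%, 1.08% and 0.737% of all genes). At an unadjusted p under 0.05 there was 1 member higher with siCIP2A#1 than with siCIP2A#2 (12.1% of all genes, 6.71% higher), 4 higher with siCIP2A#1 than with siCIP2A#3 (13.6%, 7.96% higher) and 2 higher with siCIP2A#2 than with siCIP2A#3 (15.6%, 8.24% higher). The smallest p-values per pair belonged to CLDN1 at 0.62 (SE 0.14, 95% interval 0.31 to 0.94, edgeR adjusted p = 0.108) for siCIP2A#1 minus siCIP2A#3 and to TJP3 at 1.26 (SE 0.35, 0.47 to 2.05, edgeR adjusted p = 0.192) for siCIP2A#2 minus siCIP2A#3. F11R stood at 0.57 (SE 0.17, 0.19 to 0.96, edgeR adjusted p = 0.260) for siCIP2A#1 minus siCIP2A#2. Without the mock these 3 differences passed, in fits where 18%, 22% and 16.7% of all genes passed. The libraries with the lowest CIP2A, siCIP2A#1 and siCIP2A#3, stood on opposite sides of all 3 controls for CLDN1 and TJP3. For F11R both lay above all 3 controls, at 61.6 and 45.2 CPM against 36.8 to 44.4 CPM. For CLDN4 the siCIP2A#3 library lay within the control range.

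One gene of the junction lists passed a test between siRNAs. JAM3, an adhesion molecule related to F11R, had 65.2, 126 and 115 CPM for siCIP2A#1, #2 and #3, beside 108, 115 and 104 CPM in the controls. It was lower with siCIP2A#1 than with siCIP2A#3 (log2 difference -0.82, SE 0.13, edgeR adjusted p = 0.0476), where 0.509% of all genes passed. Over the alternatives the adjusted p ranged from 1.54e-08 (edgeR with 1 control left out) to 0.0537, and without the mock 18% of all genes passed. With RLE factors (edgeR adjusted p = 0.0514) or upper quartile factors (edgeR adjusted p = 0.0537) JAM3 was not called. Against the controls JAM3 with siCIP2A#1 stood at -0.74 and was not called (edgeR adjusted p = 0.0667). DESeq2 called that difference (adjusted p = 4.36e-04), where 0.56% of all genes passed, as did edgeR with no filter (0.883%). Fits of edgeR without any 1 control also called it, and without the mock 13.8% of all genes passed. F11R and JAM3 therefore lay in opposite directions in the siCIP2A#1 library.

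In the controls themselves the non-targeting siRNAs were compared with the mock, and 0 of 7 members passed (0% of all genes; 0 members and 6.31% of all genes at an unadjusted p under 0.05, 1.14% higher; with DESeq2 0 members and 0.0221%). The widest were CLDN4 at -0.38 (SE 0.71) and F11R at 0.25 (SE 0.22). F11R was lowest in the mock among all 6 libraries. The mock was the lowest library for 3 of the 7 tested members, and the share of all genes that were lowest in the mock was not computed. Of the 7 tested members siCIP2A#1 was highest for 3 (18.1% of all genes), siCIP2A#2 for 2 (20.9%), siCIP2A#3 for 1 (18.4%), SCR#3 for 1 (11.6%), and the mock (17.6%) and SCR#2 (13.4%) for 0.

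Of the other genes of the pathway, 0 in any of the 8 lists passed in the grouped comparison or with any single siRNA. For the claudins (6 tested) the median log2 difference was 0.14 in the grouped comparison, with CLDN15 at 0.39 (SE 0.17) from 16.0 to 21.1 CPM in the controls and 19.7 to 28.7 CPM with the siRNAs. CLDN12 stood at 0.075. The 15 plaque scaffolds had a median of 0.0098, with MAGI3 at -0.16, and the 9 polarity genes -0.051, with PARD6B at -0.31 and PRKCI at -0.11. Adherens junction and desmosome genes (11 tested) had a median of -0.021, including DSP at -0.099 and MLLT4 (afadin) at -0.061. With siCIP2A#3 this list had 9 of 11 members below 0 and a median of -0.24, beside -0.042 with siCIP2A#1 and 0.072 with siCIP2A#2. Of the plaque scaffolds 11 of 15 were below 0 with siCIP2A#3, where 48.0% of all tested genes were above 0. The adhesion molecule ESAM stood at 0.40 in the grouped comparison and LSR at 0.19. Among the mesenchymal factors ZEB1 stood at 0.034, ZEB2 at -0.16 and SNAI1 at 0.68 (SE 0.42, under 1.3 CPM in every library).

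**Figure D4:**
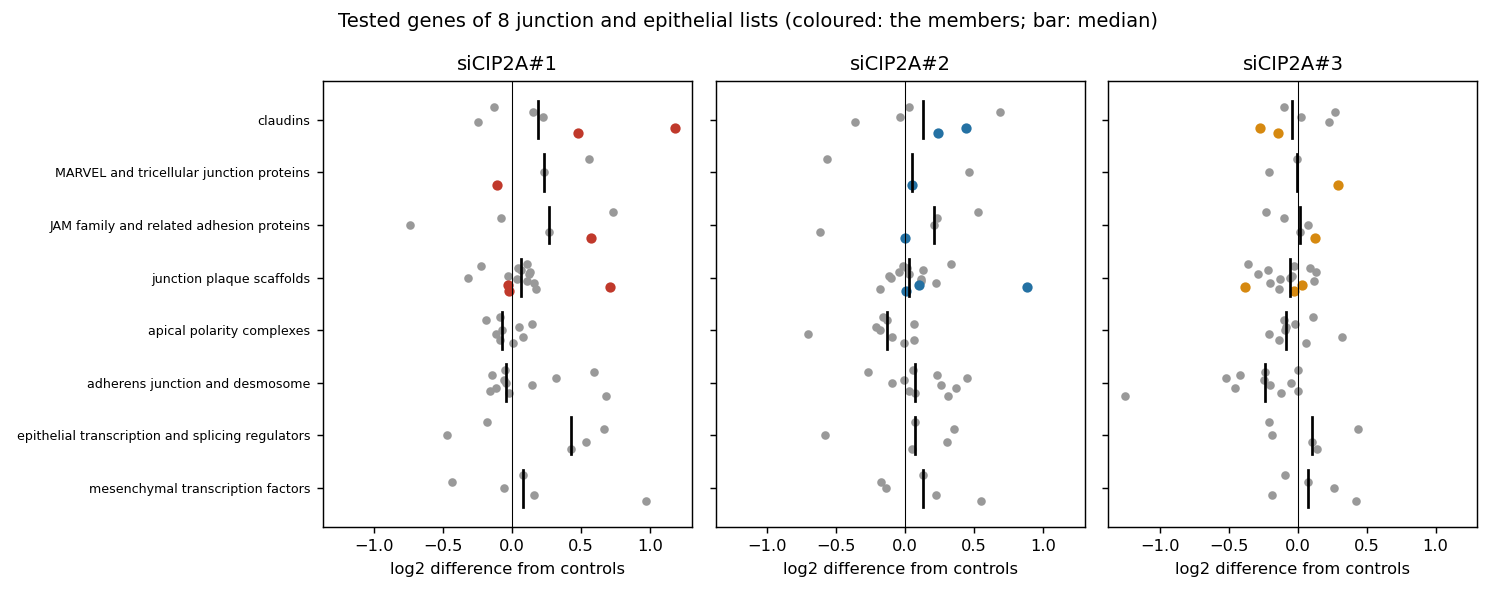
Log2 difference from the controls for the tested genes of 8 lists (rows), with each siRNA in a panel of its own, the members in colour and a bar at each list's median. The plaque scaffolds have a median near 0 in all panels, although TJP3 lies at 0.71, 0.88 and -0.38 with siCIP2A#1, #2 and #3. The adherens junction and desmosome list lies lowest with siCIP2A#3 (median -0.24).

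Keratins and markers of other cell types also varied in level between the libraries, but of these only COL1A1 was called in any main comparison. KRT8 had 438, 408 and 252 CPM for siCIP2A#1, #2 and #3 (controls 276 to 382 CPM). CLDN1 and CLDN4 had the same order of these libraries, but OCLN, TJP1, TJP3, F11R and CGN did not. The 5 epithelial markers summed to 719 to 949 CPM in the controls and 648 to 1148 CPM with the siRNAs, nearly all of it KRT8 and KRT18. Fibroblast markers, of which 3 of 6 were tested, summed to 6.51 to 7.71 CPM in the controls and 6.12 to 18.2 CPM with the siRNAs. The highest sum was with siCIP2A#1, where COL1A1 alone had 14.4 CPM and passed (log2 difference 1.52, edgeR adjusted p = 0.0271). Of the fibroblast markers THY1 was at 0 in every library, as were the leukocyte marker PTPRC and the endothelial marker CDH5. Leukocyte markers summed to 2.57 to 4.20 and 2.26 to 3.41 CPM, and endothelial markers to 7.49 to 10.9 and 7.12 to 13.6 CPM. The part of these genes in the member levels was not tested. In bulk RNA, a smaller share of cells with a transcript and less of it per cell cannot be told apart.

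The profile most like that of TJP3, the member with the widest range among those above a mean log2 CPM of 1 (1.21 on the log2 scale), was looked for among 12096 other genes. By the root-mean-square difference of centred log2 CPM over 6 libraries the nearest were PI15 (0.11), AVIL (0.12) and CCDC85A (0.13), against a median of 0.47 for all these genes. AVIL, which encodes the actin-binding protein advillin, stood at 2.30 CPM with siCIP2A#3 and 4.54 and 4.26 CPM with siCIP2A#1 and siCIP2A#2. All 3 lay between 1.59 and 4.54 CPM, as low as TJP3 itself.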

How the data were processed

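Poly(A) RNA of 6 HCC38 libraries was made into stranded TruSeq mRNA libraries, per the labels' protocols. The authors deposited raw read counts per gene and library, per the file headers. bcl2fastq 2.17, STAR 2.5.4b, Subread 1.5.1 and the build hg38 are named in the submitters' processing notes. No source used here gives the annotation, strand setting or multi-mapping rules. Spreadsheet-altered symbols (51, of which 50 were restored by Entrez identifier) included no member. Chi-square per degree of freedom between libraries of a group was 3.22 to 18.1, so none was a copy.

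Genes were filtered with filterByExpr (minimum count 10; 13562 kept) and TMM factors computed. The main tool was edgeR 4.0.16 (robust quasi-likelihood fit and test, R 4.3.3) with Benjamini-Hochberg adjustment over all tested genes: group alone; each siRNA as a level (spread from the controls); mock as a level. SE is the log2 difference over the root of F. DESeq2 1.42.0 and limma-voom 3.58.1 were alternatives, beside other factors and filters, a block and left-out libraries. Lengths and overlaps came from GENCODE 29, positions and promoters from RefSeq. Steps were tested on simulated data.

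Named genes were the members, CIP2A, per list the gene with the highest CPM, the 2 with the smallest p and any called gene, and the 3 nearest profiles. Members of the lists that make a point about absence (GRHL2, CRB3, MARVELD2, MARVELD3, EPCAM, CDH1, KRT19) and CLDN5, CLDN10, CLDN23, SNAI2, TWIST1 and ESRP1 were named after their values were seen. Members and lists were chosen with earlier results of these data known.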

Additional observations from a re-analysis of the deposited data

Results flagged for a closer look

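JAM3 passed the test of the difference between siCIP2A#1 and siCIP2A#3, each 1 library, with a log2 difference of -0.82 (edgeR adjusted p = 0.0476). In this test 0.509% of all genes passed. The call was lost with RLE factors (edgeR adjusted p = 0.0514) and upper quartile factors (edgeR adjusted p = 0.0537), and the difference between siCIP2A#1 and siCIP2A#2 was -0.95 without being called (edgeR adjusted p = 0.0842).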

How the results depend on the processing

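In the grouped comparison 0 members were called under all 14 alternatives. Its main fit did not call the silenced CIP2A either. With the replicate number as a block 0 members passed and CLDN1 stood at 0.19, while the count over all genes went from 0 to 1. Nothing in the labels says that the numbers pair the libraries. Deviations from the group means correlated at -0.117, -0.128 and 0.0076 for same-numbered libraries and at -0.0733 to 0.163 for the others. Each library had a different agent, so these values cannot show whether same-numbered libraries share an experiment or batch. Counts of called members ranged from 0 to 3 for siCIP2A#1 and from 0 to 2 for siCIP2A#2 over left-out controls, and from 0 to 6 of 21 for the differences between siRNAs (left-out controls chosen after seeing the data), the highest each time without the mock (which also changed the genes tested). With no filter the count for siCIP2A#1 was 1. Signs turned for values near 0: over left-out libraries OCLN ranged from -0.030 to 0.18 in the grouped comparison, CGN from -0.050 to 0.013 with siCIP2A#1, and TJP1 from -0.0092 to 0.018 and F11R from -0.077 to 0.054 with siCIP2A#2. For non-targeting siRNAs against mock the ranges were -0.27 to 0.21 for TJP3 and -0.0018 to 0.11 for CGN. With upper quartile factors TJP1 stood at 0.0011 with siCIP2A#1 and TJP3 at 0.0052 for non-targeting siRNAs against mock. The median transcript length gave control levels of 125 CPM per kb for TJP1, 45.5 for F11R, 27.5 for CGN, 25.9 for CLDN1, 5.17 for OCLN, 2.79 for TJP3, 0.465 for CLDN4 and 0.413 for CLDN7, with CLDN3 still at 0.235, since annotated transcripts are mostly shorter than the longest. Depth limits CLDN3 and CLDN7, with 34 and 27 counts over all 6 libraries.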

Other observations

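Of the epithelial regulators, KLF4, KLF5 and ESRP1 had groups that did not overlap, although none passed edgeR's test. KLF4 stood at 22.2 to 24.6 CPM in the controls and at 33.6, 28.6 and 24.9 CPM with siCIP2A#1, #2 and #3 (log2 difference 0.33, SE 0.13), where 3.25% of tested genes had siRNA libraries above all controls. KLF5 stood at 10.9 to 12.3 CPM in the controls and at 8.27, 7.68 and 10.1 CPM with the siRNAs (log2 difference -0.40, SE 0.15), where 4.39% had them below. ESRP1, an epithelial splicing regulator, stood at 1.52 to 2.37 CPM in the controls and 2.39 to 2.97 CPM with the siRNAs.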
